A study of Mus musculus with 2 samples.

Results

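The cluster of Mir302 and Mir367 is a run of 5 miRNA genes, Mir302b, Mir302c, Mir302a, Mir302d and Mir367, that lie next to each other on the plus strand of chromosome 3. Its members were taken by gene identifier and not by level, although earlier results of these data were known. All 5 were found among the 1973 miRNA genes counted. The libraries were made from RNA under 30 nucleotides of the intestine of B6NCrl embryos at embryonic day 16.5, males and females pooled, with no treatment or mutation named in the labels. Both libraries are biological replicates of this 1 group, so levels can be compared between genes and between replicates but not between conditions. The tissue of replicate 2 came from 41 embryos; the labels of replicate 1 say only that it was pooled.

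The cluster is known from pluripotent stem cells, where it is transcribed as a single primary RNA under the control of Oct4 and Sox2 and then cut into separate hairpins. MiR-302 shares its targeting sequence with members of the miR-290 to miR-295 cluster of mouse embryonic stem cells. The known targets of these miRNAs include inhibitors of the cell cycle and of the TGF-beta pathway. The cluster is silenced in most tissues as cells differentiate, and it has been described in the early foregut endoderm and the developing lung. The comparisons here are of the level of each member in the fetal intestine, of the members with each other, and of each member between the libraries.

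On the mm10 assembly the cluster spans 580 bases (chromosome 3, 127545228 to 127545807). It lies whole within an intron of Larp7 (127544279 to 127545825), a gene for an RNA-binding protein that is transcribed from the opposite strand, and none of the exons of its 4 annotated transcripts overlaps it. From 5′ to 3′ the hairpins are Mir302b (127545228 to 127545301), Mir302c (127545363 to 127545430), Mir302a (127545496 to 127545564), Mir302d (127545624 to 127545689) and Mir367 (127545733 to 127545807). The gaps between them measure 43 to 65 bases.

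A miRNA finds its targets mainly through its seed, bases 2 to 8 from the 5′ end. The mature sequences below are those of RefSeq on GRCm38.p6, which held all 5 hairpins, all 5 of the 5p arms and 4 of the 3p arms; miR-302a-3p is named only. They are shown with the seed in capitals, because the seed sets the families in which the levels are read. The 3p arms of the cluster, the arms by which these miRNAs are known to act, were these.
miR-302b-3p: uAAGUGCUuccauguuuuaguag
miR-302d-3p: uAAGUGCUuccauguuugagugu
miR-302c-3p: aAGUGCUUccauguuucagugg
miR-367-3p: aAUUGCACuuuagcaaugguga

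The 5p arms, cut from the other side of the hairpin, were these.
miR-302a-5p: aCUUAAACgugguuguacuugc
miR-302b-5p: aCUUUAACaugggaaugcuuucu
miR-302c-5p: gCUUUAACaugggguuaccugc
miR-302d-5p: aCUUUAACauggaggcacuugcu
miR-367-5p: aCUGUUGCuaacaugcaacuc

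MiR-302b-3p and miR-302d-3p were identical at 20 of 23 positions and differed by U18G, A22G and G23U, counted from the 5′ end of miR-302b-3p, all outside the seed. MiR-302c-3p starts 1 base later in RefSeq, which moves its seed by 1 base within the same run of letters; set against miR-302b-3p with that shift it was identical at 20 of 22 positions and differed by U18C and A22G. The 5p arms of miR-302b, miR-302c and miR-302d had 1 seed in common, CUUUAAC, which no other mature entry of the RefSeq table carried. The 3p seed AAGUGCU was carried by 5 of 1679 mature names, of which 3 are members of the miR-290 to miR-295 cluster on chromosome 7. The seed of miR-367-3p, AUUGCAC, was carried by 6 names, and the other 5 are miR-25, miR-32, miR-92a, miR-92b and miR-363. The relatives with which the cluster is compared below were the following, again with the seed in capitals.
miR-291a-3p: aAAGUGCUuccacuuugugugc
miR-294-3p: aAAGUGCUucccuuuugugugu
miR-295-3p: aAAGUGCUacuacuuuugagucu
miR-17-5p: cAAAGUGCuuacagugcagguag
miR-93-5p: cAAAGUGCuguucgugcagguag
miR-25-3p: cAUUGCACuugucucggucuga
miR-92a-3p: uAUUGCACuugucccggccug
miR-363-3p: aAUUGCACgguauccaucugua
miR-32-5p: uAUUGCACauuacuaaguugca

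The counts were deposited per hairpin gene, so the 5p and 3p arms of 1 hairpin were not told apart. The hairpins of Mir302d, a member with a high level, and of Mir367, the member without reads, are shown with both mature arms in capitals, to mark which parts a read could have come from.
Mir302d: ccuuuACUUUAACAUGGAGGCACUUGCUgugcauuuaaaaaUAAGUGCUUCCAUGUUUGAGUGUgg
Mir367: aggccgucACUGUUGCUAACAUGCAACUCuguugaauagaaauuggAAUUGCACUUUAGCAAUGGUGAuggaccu

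Replicate 1 held 4261976 reads on the strand of a miRNA gene and replicate 2 held 5680764. Levels are given as CPM, the counts scaled to a fixed total of such reads, not divided by length, since a read is about as long as the mature miRNA. Intervals are exact Clopper-Pearson 95% intervals of each library, and a count of 0 was given an upper limit of 3 counts, which is 0.704 CPM in replicate 1 and 0.528 CPM in replicate 2. Both cover counting error only, because PCR copies could not be told apart. No gene count holds the reads with several mapping places, which made up 26.2% and 25.7% of all reads. The labelled tissue was checked against its markers: the miRNAs of intestinal epithelium Mir192, Mir194-1, Mir194-2 and Mir215 summed to 3.21% and 4.51% of the counts in replicates 1 and 2, and the smooth muscle pair Mir143 and Mir145a to 17.99% and 17.3%.

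The Mir302-Mir367 cluster was present at a low level in the fetal intestine, with 478 reads in replicate 1 and 553 in replicate 2. These are 112 CPM (interval 102 to 123) and 97.3 CPM (89.4 to 106), or 0.0105% ± 0.00105 of the counts (SD, n = 2). Of the 5 members, 4 had at least 10 counts in both libraries, against 17.6% of all 1973 genes. The fifth, Mir367, was among the 63.7% of genes with 0 counts in both. In whole tissue fewer cells with the cluster and less of it per cell cannot be told apart.

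Mir302a was the most abundant member, with 173 reads or 40.6 CPM in replicate 1 (interval 34.8 to 47.1) and 213 reads or 37.5 CPM in replicate 2 (32.6 to 42.9). Mir302d stood almost level with it, at 38.9 CPM from 166 reads (33.2 to 45.3) and 35.9 CPM from 204 reads (31.2 to 41.2). The intervals of this pair overlapped in both libraries, and the ratio of Mir302a to Mir302d, 1.04 in each, was within counting error. Divided by hairpin length, which is 69 bases for Mir302a and 66 for Mir302d, their order turned (log2 ratio -0.0032 in place of 0.06), so neither can be placed above the other.

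Mir302b, the first hairpin of the cluster, had 111 reads in replicate 1 and 125 in replicate 2, or 26.0 CPM (21.4 to 31.4) and 22.0 CPM (18.3 to 26.2). It was below Mir302d in both libraries without overlap of the intervals, and Mir302d was 1.56 ± 0.0965 times as high (n = 2). A stretch of 20 bases is common to the hairpins of Mir302a and Mir302b, so that reads cut short within it would map to both and be counted for neither. The longest stretch that Mir302d has in common with any other of 1004 RefSeq hairpins was 17 bases, and for Mir302c it was 16. The part of short reads in the order of the members was not tested.

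Mir302c was lower still and was the member whose level differed between the libraries by the test given further on. It had 28 reads in replicate 1 and 11 in replicate 2, or 6.57 CPM (4.37 to 9.50) and 1.94 CPM (0.967 to 3.46). Mir302b was 3.96 times as high as Mir302c in replicate 1 and 11.4 times in replicate 2, and the intervals of the pair did not overlap in either library. Mir302c lies between Mir302b and Mir302a, so the levels did not follow the order of the hairpins along the transcript.

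**Figure D1:**
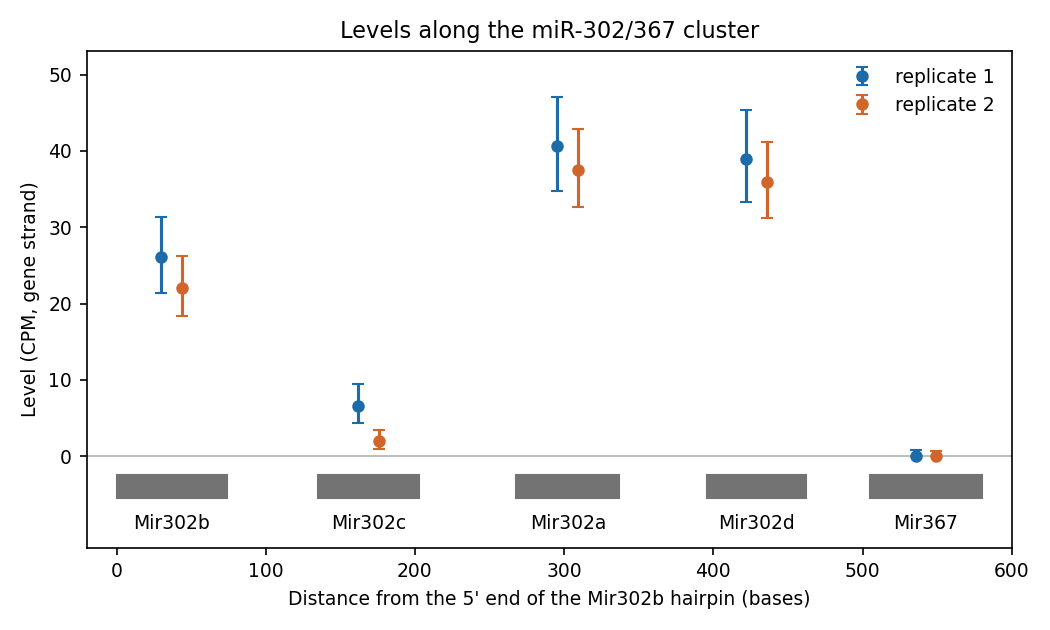
Level of each member in CPM (y axis) against the distance in bases from the 5′ end of the Mir302b hairpin (x axis), with grey bars for the hairpins, 1 point per library and exact 95% intervals of counting error. Mir302a and Mir302d stand highest in both libraries, at 35.9 to 40.6 CPM, Mir302c dips to 6.57 and 1.94 CPM between its neighbours, and Mir367 lies at 0.

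Mir367, the last hairpin, whose 3p seed is unrelated to those of the miR-302 arms, had 0 reads on either strand in both libraries. Its level was therefore below 0.704 CPM in replicate 1 and 0.528 CPM in replicate 2 by the limit of 3 counts. The observed level of Mir302a was 57.7 times the limit of 3 counts in replicate 1 and 71 times in replicate 2. For Mir302c, the nearest member by level, the observed level was 9.33 times the limit in replicate 1 and 3.67 times in replicate 2. These ratios leave out the counting error of Mir302a and Mir302c. The exact interval of Mir302c began at 4.37 CPM in replicate 1 and at 0.967 CPM in replicate 2. The longest stretch that the Mir367 hairpin has in common with another of the 1004 hairpins was 11 bases, and both of its mature arms were found in no gene but Mir367 among 141767 GENCODE transcripts. Intergenic and intronic sequence was not searched. The 7 mature arms of the other members printed above were likewise found only in their own genes in that search.

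As shares of the cluster's own reads, which do not depend on the library total, Mir302a took 36.2% in replicate 1 (31.9 to 40.7) and 38.5% in replicate 2 (34.4 to 42.7). Mir302d took 34.7% and 36.9%, and Mir302b 23.2% and 22.6%. For these 3 genes the intervals of the libraries overlapped. Mir302c took 5.86% (3.93 to 8.36) in replicate 1 and 1.99% (0.997 to 3.53) in replicate 2, without overlap, and Mir367 took 0%, which by the limit of 3 counts allows up to 0.628% and 0.542%.

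**Figure D2:**
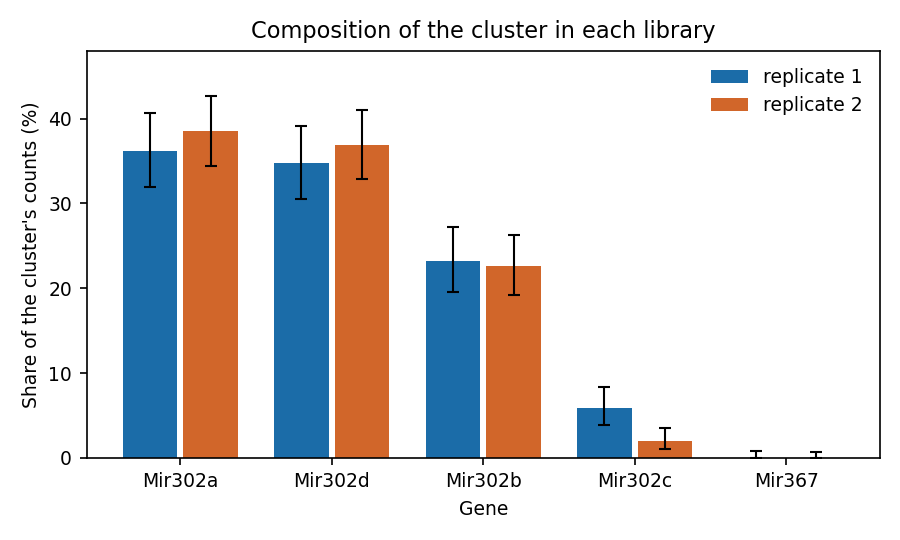
Share of the cluster's reads (y axis, percent) held by each member (x axis, in order of mean level), with 1 bar per library and exact 95% binomial intervals. Mir302a, Mir302d and Mir302b hold 22.6% to 38.5% each in both libraries, and Mir302c holds 5.86% in replicate 1 and 1.99% in replicate 2.

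The members were compared between the libraries together with all 364 genes of at least 20 summed counts, with an exact two-sided binomial test on TMM-scaled counts and Benjamini-Hochberg adjustment over the 364. The test sets a ratio against counting error and compares these libraries, not conditions. Mir302c was higher in replicate 1: its log2 ratio of replicate 2 to replicate 1 was -1.59 with a counting error of 0.51 (exact test, adjusted p = 0.00276). The exact 95% interval of its ratio ran from 0.145 to 0.668. Of the 4 members tested it was the 1 that passed, where 51.9% of all tested genes passed in either direction and 27.5% were higher in replicate 1. No member was higher in replicate 2, as 24.5% of all tested genes were. The difference of Mir302c also exceeded 1.5-fold, and 8.52% of the tested genes both passed and exceeded 1.5-fold in that direction. Among the 134 tested genes with under 400 summed counts, the range in which all 4 members fall, 26.1% passed.

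The other members tested did not pass. The log2 ratio was 0.01 for Mir302a (exact test, adjusted p = 0.987) and also 0.01 for Mir302d (exact test, adjusted p = 0.987), and -0.11 for Mir302b (exact test, adjusted p = 0.652). The exact 95% intervals of their ratios were 0.823 to 1.24, 0.818 to 1.25 and 0.710 to 1.20, without adjustment for the number of genes. Ratios inside these bounds were not excluded at this depth. Mir367, at 0 in both libraries, was not tested. Scaling by total counts instead of TMM moves every log2 ratio down by 0.13; Mir302a and Mir302d then took a negative sign (-0.12 each) and again did not pass.

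Other markers also moved between the libraries. The liver miRNA Mir122 passed the test as higher in replicate 1, as Mir302c did, with 994 and 448 CPM (log2 ratio -1.02). The intestinal Mir215 passed as higher in replicate 2, with 18486 and 29302 CPM (log2 ratio 0.79). The pancreatic list of 3 genes had 7 reads in replicate 1 and 27 in replicate 2, the striated muscle list of 4 genes stood at 97.1 and 118 CPM, and the blood list of 3 genes at 1401 and 1209 CPM. The part of these lists in the difference of Mir302c was not tested.

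**Figure D3:**
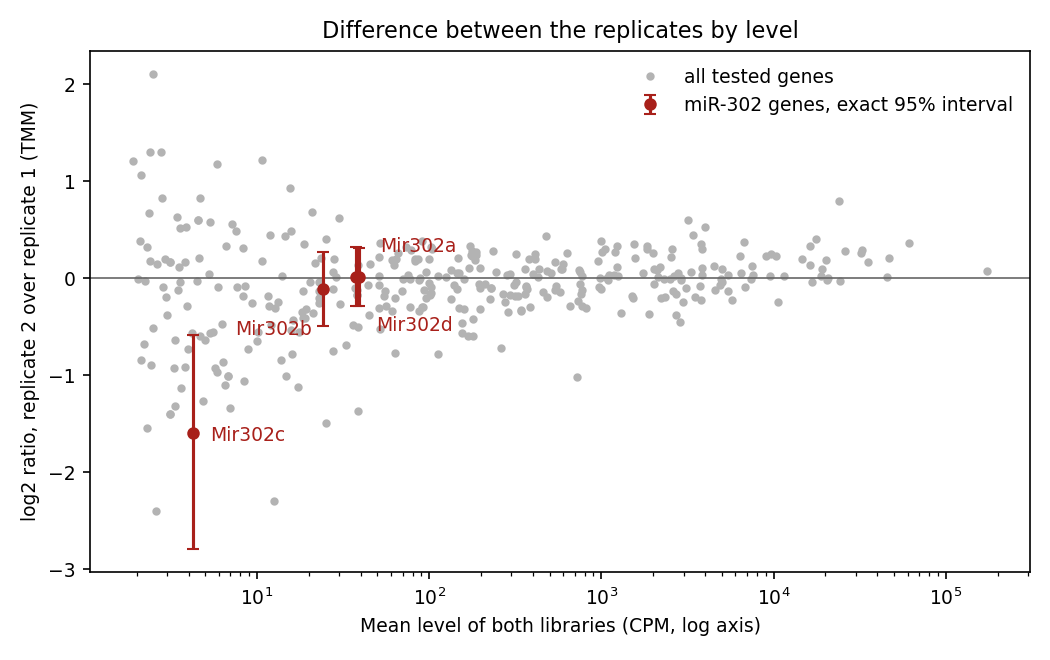
Log2 ratio of replicate 2 to replicate 1 after TMM scaling (y axis) against the mean level in CPM (x axis, log scale) for the 364 tested genes in grey, with the 4 tested members in red and exact 95% intervals of counting error. Mir302a, Mir302d and Mir302b lie near 0 and their intervals include it, and Mir302c lies at -1.59.

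Among the genes with reads the 4 members with reads held places just above the middle, at percentiles 55.0 to 67.7 by mean level. In order of mean level Mir302a ranked 231, Mir302d 238, Mir302b 252 and Mir302c 322 of 1973. Their mean levels were 39.0 ± 2.19, 37.4 ± 2.15, 24.0 ± 2.86 and 4.25 ± 3.28 CPM (SD, n = 2), and the median of the 5 members was 24.0 CPM, beside a median of 0 CPM over all genes. Mir143, the most abundant gene of the tissue, was 4455 ± 134 times as high as Mir302a. The genes nearest to Mir302a in level over the 2 libraries, by distance on the log2(CPM + 1) scale, were Mir218-2 (38.7 and 38.9 CPM), Mir26a-2 (41.5 and 35.0 CPM) and Mir3072 (40.1 and 34.2 CPM). Those nearest to Mir302c were Mir297a-2 (5.16 and 2.11 CPM), Mir3073a (7.04 and 2.64 CPM) and Mir1947 (4.93 and 1.76 CPM).

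As a genomic cluster, the Mir302 and Mir367 genes ranked 44 of 104 groups of at least 2 miRNA genes on 1 strand less than 10 kb apart, by summed level. Of the 15 groups with 4 or more genes it ranked 9. Of the 8 other such groups whose top gene reached 100 summed counts, 3 held at least 1 gene with 0 counts in both libraries. Those 3 groups have 13 or more genes each, and of the 5 other groups of 4 to 7 genes none held an unread gene. These 5 groups were read far more deeply, with 9113 to 361521 summed reads against 1031 in the Mir302-Mir367 cluster. Small groups whose top gene was below 100 summed counts did hold unread genes. The group of Mir290a had 1 unread of 7 genes with 93 reads, and that of Mir344d-3 had 4 of 6 with 14 reads.

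The miR-290 to miR-295 cluster, the other miRNA cluster of embryonic stem cells, had few reads. Of its genes, Mir291a, Mir294 and Mir295 carry the AAGUGCU seed, and Mir292 and Mir293 do not. The sums of this cluster are therefore not those of seed relatives alone. Of its 7 genes with a row, 1 had 0 counts in both libraries (Mir290a) and 2 reached 10 counts in both (Mir292 and Mir293). Together they had 53 reads in replicate 1 and 40 in replicate 2, and the Mir302-Mir367 cluster was 9.02 and 13.8 times as high. Mir293 was the highest, with 15 and 20 reads or 3.52 CPM in each library. Mir292 had 13 and 11 reads, and Mir294 had 15 and 6. Mir295 had 3 reads in each library, and Mir291a and Mir291b had 4 and 3 reads in replicate 1 and 0 in replicate 2. Of the 3 genes tested, Mir294 was higher in replicate 1 (log2 ratio -1.54, exact test, adjusted p = 0.0497), where 27.5% of all tested genes were. Mir292 and Mir293 did not pass. Without the minimum of 20 counts Mir294 did not pass either (exact test, adjusted p = 0.0928), and over the alternatives that tested it the adjusted p of this exact test ran from 0.0243 to 0.0928. Mir290b and Mir292b were not analysed here.

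The miR-17 family, known for promoting proliferation, carries the seed AAAGUGC, which holds 6 of the 7 letters of the miR-302 seed moved by 1 base. Its 6 listed genes were all far above the cluster, from Mir20b at 426 ± 23.4 CPM to Mir17 at 20824 ± 1267 CPM (SD, n = 2). The mature miR-6383 has the same seed, but its gene was not on the list. Mir17 was 533 ± 2.53 times as high as Mir302a, and the family summed to 397 and 437 times the cluster in replicates 1 and 2. Mir20a stood at 9060 ± 432 CPM, Mir93 at 7623 ± 344 CPM and Mir106b at 5049 ± 95 CPM, above Mir106a at 545 ± 56.0 CPM.

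The relatives of Mir367 were read although Mir367 was not. All 5 genes of the list that share the AUUGCAC seed had at least 10 counts in both libraries: Mir92-1 stood at 2704 ± 665 CPM, Mir363 at 484 ± 13.9 CPM and Mir25 at 434 ± 7.45 CPM (SD, n = 2). Mir32 (233 ± 16.9 CPM) and Mir92-2 (180 ± 47.9 CPM) were lower. Mir92-1 and Mir92-2 carry the same mature miR-92a-3p, and a read that maps to both loci is in neither count. The values of these 2 hairpins cannot therefore be read as levels of miR-92a-3p. Mir92b, which was not on the list and was added after its seed match was seen, stood at 82.4 and 44.0 CPM. The observed level of Mir25 was 625 times the limit of 3 counts for Mir367 in replicate 1 and 813 times in replicate 2.

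The let-7 family, which accumulates as stem cells differentiate, summed over 10 genes to 1175 and 1497 times the level of the Mir302-Mir367 cluster. Its highest genes were Mirlet7g (61466 ± 7000 CPM), Mirlet7i (47038 ± 1824 CPM), Mirlet7d (14702 ± 463 CPM) and Mir98 (9672 ± 570 CPM; SD, n = 2). A list of 13 miRNAs known from the gonad and germ line had 4 reads in replicate 1 and 7 in replicate 2 over all of them, none of them above 3 reads in a library and 7 at 0 in both. Its highest genes were Mir741, with 1 and 3 reads, and Mir202, with 2 and 1. The summed level of the Mir302-Mir367 cluster was 119.5 and 79 times that of the list.

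**Figure D4:**
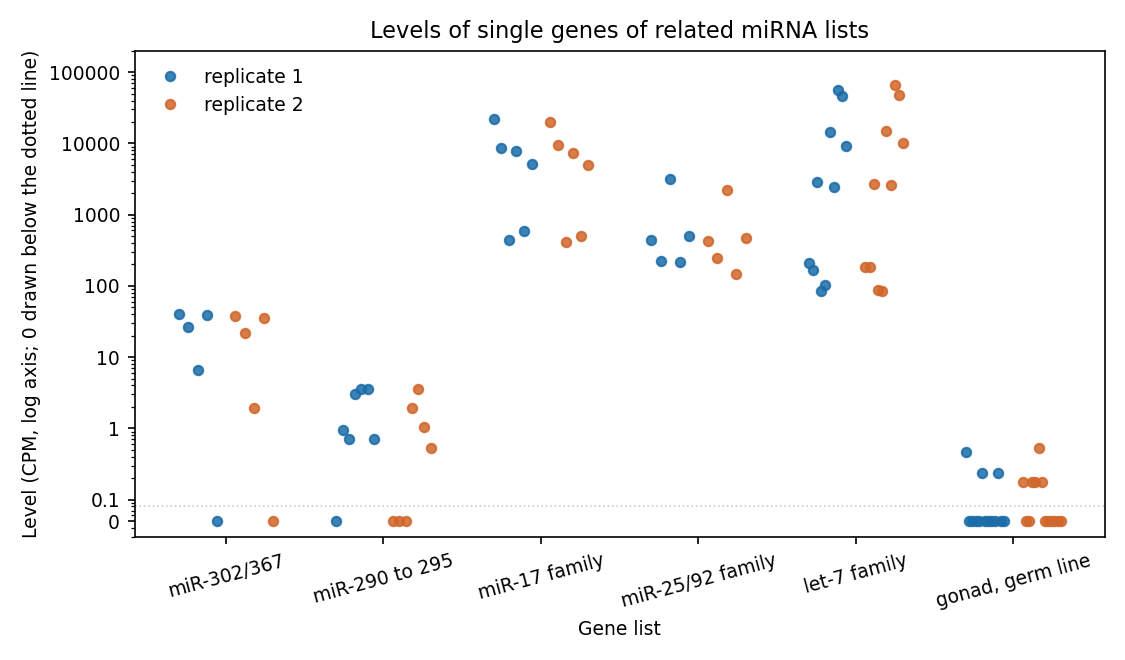
Level in CPM (y axis, log scale, with 0 drawn below the dotted line) of each gene of the cluster and of 5 other lists (x axis), with 1 point per gene and library. The read miR-302 genes, at 1.94 to 40.6 CPM, lie above the gonad and germ line list in both libraries and below every gene of the miR-17, miR-25/92 and let-7 lists.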

How the data were processed

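Per the readme of each library, the authors deposited gene quantifications on mm10 with GENCODE annotation M4. These are raw counts of reads for each miRNA gene, which the authors did not normalize, in 3 unnamed columns (both strands, the gene's strand, the opposite strand), told apart by their values. No source used here gives the aligner, counter, versions or trimming. Totals leave out the 4 rows without a gene: 19.5% and 17.2% of the reads of replicates 1 and 2 were unmapped, and 3.69% and 2.88% lay outside miRNA genes.

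Counts on the gene's strand were divided by their total to give CPM. GENCODE M21, also on mm10, gave symbols and coordinates (1894 of 1973 identifiers found), and RefSeq (GRCm38.p6) the sequences. Genes with at least 20 summed counts were compared between replicates by an exact two-sided binomial test given the sum, with TMM sizes from edgeR 4.0.16 and Benjamini-Hochberg adjustment at 0.05. With 1 group there is no contrast for edgeR's quasi-likelihood test. The binomial test was run on simulated counts that held counting error only. That run cannot show how the test behaves when replicates vary beyond counting error. Log2 ratios used a prior of 0.5 counts. Python 3.11.15, scipy 1.17.1, R 4.3.3 and DESeq2 1.42.0 (size factors, as an alternative) were used.

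Genes named by rule are all members, the members of related lists with at least 3 counts in a library (the top 4 of longer lists), the 3 genes nearest in level to each of 2 members, and Mir143; others are marker values. The members and lists were chosen with earlier results of these data known. The labels give each replicate its own tissue sample.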

Additional observations from a re-analysis of the deposited data

How the results depend on the processing

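The counts of the members were the same without regard to strand, since none had reads on the opposite strand. On a total that excludes Mir143, the levels of Mir302a, Mir302d and Mir302b were 47.3, 45.3 and 29.1 CPM and the cluster held 0.0127% of the counts; with all reads as the total these were 19.7, 18.9 and 12.1 CPM and 0.00527%. Divided by hairpin length (chosen after seeing the data), Mir302d stood at 39.9 CPM, the log2 ratio of Mir302a to Mir302d turned to -0.0032 and that of Mir302d to Mir302b was 0.81 in place of 0.64. With 1 replicate left out the level is that of the other library: Mir302a ranged from 37.5 to 40.6 CPM, Mir302c from 1.94 to 6.57 CPM (over 1.5 times from its mean of 4.25 CPM either way) and the cluster from 0.00973% to 0.0112%. Mir302c was higher in replicate 1 in each of the 5 alternatives that tested it (log2 ratio -1.72 to -1.55, exact test, adjusted p from 0.000721 to 0.00601). With at least 100 summed counts it was not tested, and 0 members were called in place of 1. No member was higher in replicate 2 under any alternative run. The log2 ratios of Mir302a (-0.12) and Mir302d (-0.12) changed sign with total counts, and that of Mir302d also with unstranded counts (-0.00046), none of them past the test. Over all genes, 100 were higher in replicate 1 and 89 in replicate 2; with total counts these were 164 and 46, and with at least 1.5-fold 31 and 9. No paired analysis was possible because both libraries belong to 1 group. Depth allows only an upper limit for Mir367, and limits Mir302c most among the members with reads: with 28 and 11 reads its counting error alone is 18.9% and 30.2%.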
